A study of Mus musculus with 2 samples.

Results

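The genes described here are 41 lysosomal genes of the MS1 line, immortalised endothelial cells first isolated from islets of the mouse pancreas. They were taken by symbol from a list of lysosomal proteases, glycosidases, sulfatases, lipid-handling proteins, membrane proteins, subunits of the vacuolar proton pump and the regulators Tfeb and Tfe3. All 41 were found, of 11405 genes with a value in both libraries. Poly-A RNA was sequenced, with 1 library per group. The control cells, with the genotype label wt, had been infected with a lentivirus for a short hairpin RNA that targets LacZ, a bacterial gene that mouse cells lack. The cells with the genotype label Pspc1 knockdown had received the same kind of virus with a hairpin against Pspc1, which encodes an RNA-binding protein of nuclear paraspeckles. Both groups were therefore infected MS1 cultures, and the labels give neither the number of hairpins nor whether infected cells were selected or cloned. Per its design text, the study set both RNA profiles against each other by gene sets.

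Lysosomes are acidic organelles in which proteins, glycans and lipids delivered by endocytosis and autophagy are broken down. Their hydrolases are made in the endoplasmic reticulum, receive mannose 6-phosphate tags in the Golgi and are carried by sorting receptors to endosomes. The lumen is kept acidic by the V-ATPase, a proton pump with a membrane sector, V0, and an ATP-hydrolysing sector, V1. The transcription factors TFEB and TFE3 bind CACGTG-type elements near the start of many of these genes, and in nutrient-rich cells they are held in the cytoplasm after phosphorylation by mTORC1. In endothelium, lysosomes take up lipoprotein-derived cholesterol and turn over matrix and cell-surface glycans.

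The libraries held 64009912 reads on the listed genes (LacZ hairpin) and 53518762 reads (Pspc1 hairpin). Pspc1 itself had a deposited value of 28.8 under the LacZ hairpin and 3.78 under the Pspc1 hairpin, 7.62-fold lower. The read totals take the common step of the deposited values in a library as 1 read. Deposited values are thus read here as counts that the authors divided by a scale factor per library. They compare a gene between libraries, and levels of different genes are compared below only per kilobase of exon. Of 12 endothelial markers 10 had values, led by Pecam1 (2258 in the control and 2175 in the knockdown library), while Vwf and Cldn5 had none. Of those with a mean of at least 50, Cdh5 and Kdr were at least 1.5-fold lower in the knockdown library and Esam at least 1.5-fold higher. Of 14 macrophage markers 1 had a value, Cd14 (1.07 and 1.34), and the defining markers Adgre1, Csf1r and Ptprc had none. Marker sums were 5900 and 5822 for the endothelial list, 1.87 and 3.37 for the 2 of 7 fibroblast markers with values, and 23.9 and 36.9 for Krt18, the only 1 of 8 islet, acinar or duct markers with a value. Whether these marker differences bear on the lysosomal genes was not tested. In bulk RNA, fewer cells of a type and less RNA per cell cannot be told apart.

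The lysosomal genes as a group differed little in total between the libraries, and single members went both ways. Their reads made up 0.838% of the control library (95% exact binomial interval 0.836% to 0.840%) and 0.881% of the knockdown library (0.879% to 0.884%). The sum of their deposited values was 8219 in the control and 9289 in the knockdown library, a ratio of 1.13. Over all 11405 genes the sum was also larger in the knockdown library, with 980876 in the control and 1054228 in the knockdown library. Differences are given as log2 ratios, knockdown over control, after adding a pseudocount of 0.5 to both values. A gene was called higher or lower when its mean of both values was at least 50 and it differed by at least 2-fold, with 1.5-fold as a smaller size. With 1 library per group there is no replicate check, no p-value was computed, and each interval below covers counting error only.

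Of the 41 genes, 32 had a mean of at least 50. None of the 32 was at least 2-fold higher, against 0.551% of all 3629 genes of that mean, and 2 were at least 2-fold lower, against 0.937%. The 2 lower genes were Hgsnat and Ctsh. At 1.5-fold, 2 were higher (Neu1 and Atp6v0c), or 6.25% of members against 3.39% of all genes. The same 2 genes, Hgsnat and Ctsh, made up the lower side at 1.5-fold, where 3.89% of all genes lay. A log2 ratio above 0 was found for 22 of the 32, or 68.8%, beside 60.1% of all genes, and the median was 0.21 beside 0.07. The counting interval lay on 1 side of equality for 38 of the 41 genes and held equality for Ctsz, Ppt1 and Tfeb. The deepest members were known to within hundredths of a log2 unit by counting alone, and this precision says nothing about the spread between cultures.

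**Figure D1:**
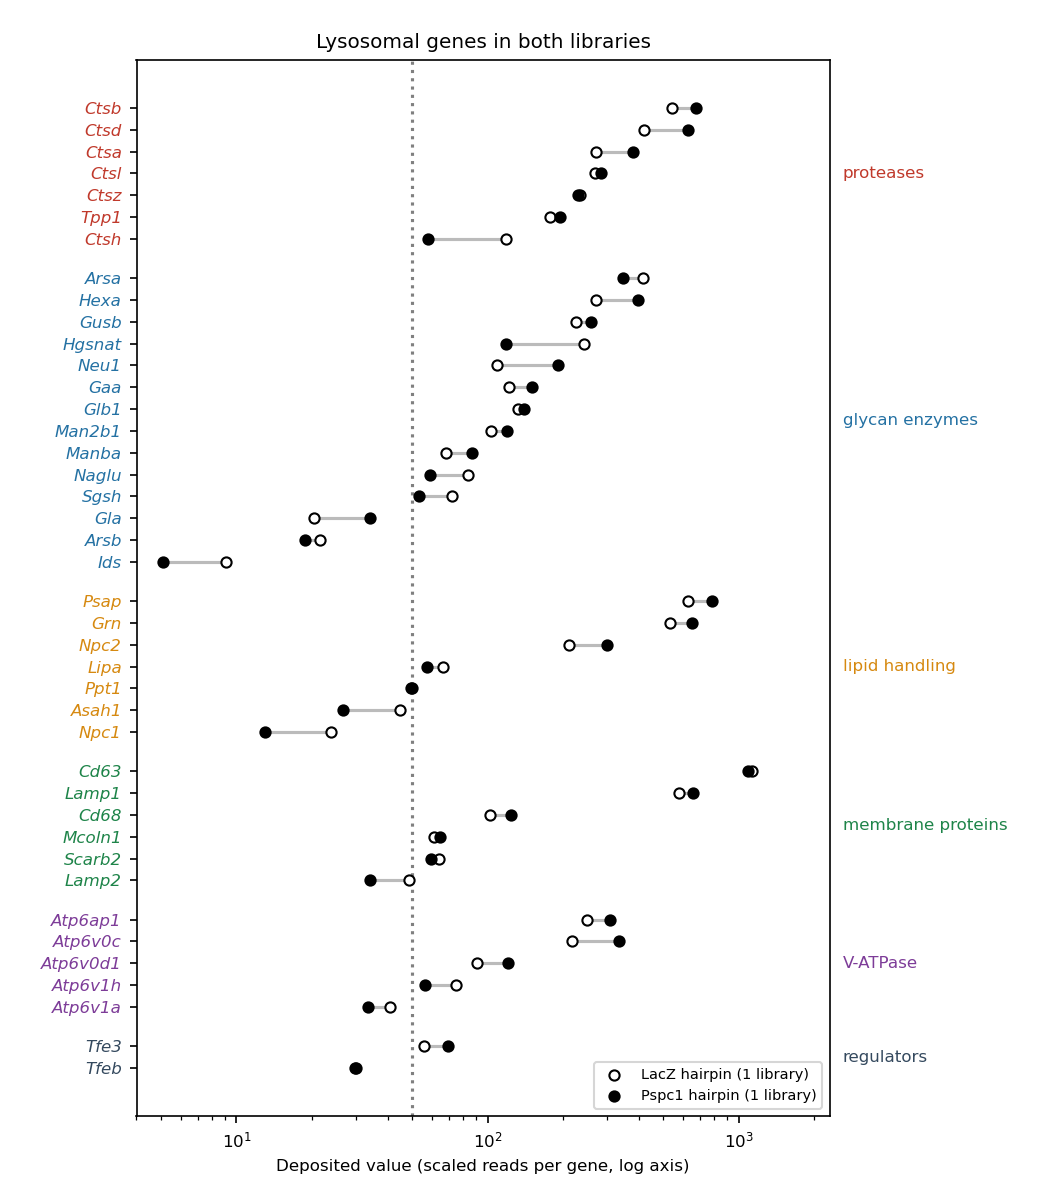
Deposited value of each of the 41 lysosomal genes in the LacZ hairpin library (open) and the Pspc1 hairpin library (filled), on a log axis and grouped by role, with 1 library per group and no error bar. The dotted line marks a value of 50; Hgsnat (242 and 118) and Ctsh (118 and 58.1) have the widest gaps to the left, and Neu1 (109 and 191) has the widest gap to the right among genes with a mean above that line.

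The proteases went both ways, and the 1 member past the 2-fold size was lower. Ctsh encodes cathepsin H, a cysteine protease that trims amino acids from the N-terminus of proteins. It lies on mm10 chromosome 9, 90054152 to 90076089, plus strand (ENSMUSG00000032359). Its value was 118 under the LacZ hairpin and 58.1 under the Pspc1 hairpin. It was the least abundant of the 7 proteases in both libraries per kilobase of exon (26.3 and 12.9). The log2 ratio was -1.02, with a 95% counting interval of -1.09 to -0.97 for the ratio without pseudocount. It lay at the edge of the size rule: the log2 ratio was -0.98 after TMM scaling (trimmed mean of M values, a library scaling that ignores extreme genes), -0.97 after median-of-ratios scaling, -0.97 with a pseudocount of 5 and -0.97 after a correction for length and GC content.

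The other cysteine cathepsins differed less. Ctsb, the endopeptidase cathepsin B, had 542 in the control and 673 in the knockdown library (log2 ratio 0.31). Ctsl, cathepsin L, had 268 and 282 (0.07, or -0.03 when scaled by total reads and 0.24 after the length and GC correction). Ctsz, a carboxypeptidase also called cathepsin X, had 233 and 229 (-0.02, or -0.25 with the length and GC correction and 0.02 with TMM). The 4 cysteine cathepsins thus had ratios from -1.02 to 0.31, while their summed values differed by 1.07-fold. Their share of reads was 0.1184% in the control and 0.1179% in the knockdown library. Ctsd encodes cathepsin D, the aspartic endopeptidase, and had 421 and 627. Its log2 ratio of 0.58 (interval 0.55 to 0.60) fell just short of 1.5-fold, which it passed after TMM scaling (0.62) or median-of-ratios scaling (0.63). The ratio of Ctsd was 0.47 when scaled by total reads and 0.46 after the length and GC correction. Ctsa, the serine carboxypeptidase that also protects the sialidase NEU1 and beta-galactosidase from breakdown, had 271 and 381 (0.49). The tripeptidyl peptidase gene Tpp1 had 177 and 194 (0.13). On the map Gm49369 covers 34.4% of the exonic bases of Ctsd on the same strand, and reads of both could not be told apart.

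Enzymes that break down glycans held the largest ratios in both directions. Hgsnat, on mm10 chromosome 8, 25944453 to 25976753, minus strand (ENSMUSG00000037260), encodes the membrane enzyme that acetylates the terminal glucosamine of heparan sulfate. Its value was 242 under the LacZ hairpin and 118 under the Pspc1 hairpin. The log2 ratio was -1.03 with a counting interval of -1.07 to -0.99. Per kilobase of exon it stood 12th among the 41 genes in the control library and 21st in the knockdown library, the largest shift in rank of any member. Like Ctsh it lay at the edge of 2-fold, with a log2 ratio of -0.98 after either TMM or median-of-ratios scaling. It was -0.998 both with the larger pseudocount and after the length and GC correction.

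Neu1, on mm10 chromosome 17, 34931253 to 34935953, plus strand (ENSMUSG00000007038), encodes the lysosomal sialidase. Its value was 109 under the LacZ hairpin and 191 under the Pspc1 hairpin, 1.75-fold higher. The log2 ratio was 0.81 (interval 0.77 to 0.86), the highest of the 41 genes, and it lay between 0.70 and 0.86 under every scaling, pseudocount and correction tried. NEU1 works in a complex with cathepsin A and beta-galactosidase. Ctsa had a ratio of 0.49, and Glb1, the beta-galactosidase gene, had 132 and 139 (0.08, or -0.03 when scaled by total reads). The 3 genes of that complex thus had ratios spread over 0.73 log2.

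Among 9 glycosidase genes 8 lay above 0 on the log2 scale, beside 45.2% of all genes without a minimum mean. Of the 8 with a mean of at least 50, 7 lay above 0, beside 60.1% of all genes of that mean. Hexa, the alpha subunit of beta-hexosaminidase, had 271 and 399 (0.56). It passed 1.5-fold after TMM (0.60) and median-of-ratios scaling (0.61). With total reads it was 0.45, and after the length and GC correction 0.42. Gla, alpha-galactosidase A, had 20.4 and 33.9 (0.72), but its mean was too low for the size rule. The remaining members had smaller differences. Manba, the beta-mannosidase gene, had 68.4 and 87.0 (0.34), and Man2b1, the alpha-mannosidase gene, had 103 and 119 (0.21). Gaa, which breaks down glycogen, had 122 and 150.5 (0.30). Gusb, beta-glucuronidase, had 225 and 259 (0.20). Naglu, which removes N-acetylglucosamine from heparan sulfate, was the exception, with 83.9 and 58.8 (-0.51). It passed 1.5-fold on the lower side when scaled by total reads (-0.61) and after the length and GC correction (-0.68). After TMM it was -0.47, and after median-of-ratios scaling -0.46.

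All 4 sulfatase members had a log2 ratio below 0, and none reached 1.5-fold with a mean of at least 50. Only 2 of the 4 had such a mean. Without a minimum mean 45.2% of all genes lay above 0, and 60.1% of those with a mean of at least 50. Sulfatases strip sulfate from glycosaminoglycans and glycolipids and depend on an activating enzyme in the endoplasmic reticulum, SUMF1. Arsa, which acts on sulfatide, had 417 under the LacZ hairpin and 345 under the Pspc1 hairpin (-0.27). Sgsh, the heparan N-sulfatase gene, had 72.2 and 53.4 (-0.43). Arsb, which acts on dermatan sulfate, had 21.4 and 18.7 (-0.19), and Ids, the iduronate sulfatase gene, had 9.09 and 5.12 (-0.77). Ids rested on 593 and 260 reads, the fewest of any member, and its interval ran from -1.04 to -0.61. Galns, a sulfatase gene outside the members, had 39.6 and 43.0 (0.12). Sumf1 itself had 62.6 and 53.5 (-0.22). Exons of Card14, on the other strand, overlap 21.6% of the exonic bases of Sgsh, and Card14 had values of only 1.10 and 4.24.

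The members that act on heparan sulfate were mostly on the low side. Heparan sulfate is degraded from its end by a fixed sequence of enzymes. This grouping was made after the values were seen and carries no test. Of the 5 members of that route, Ids, Sgsh, Hgsnat and Naglu had ratios below 0 and Gusb above 0, with a median of -0.51. Of the 4 whose mean was 50 or more, 3 were below 0. The route's enzymes outside the members were left out of this count. Of 12 genes of sphingolipid breakdown, likewise grouped after the values were seen, 10 had ratios above 0. Over all genes without a minimum mean the share above 0 was 45.2%, and the median of the 12 was 0.38. Galc, the galactosylceramidase gene outside the members, had 18.4 and 40.6 (2.21-fold), with a mean under the minimum, and the exceptions were Arsa and Asah1.

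**Figure D2:**
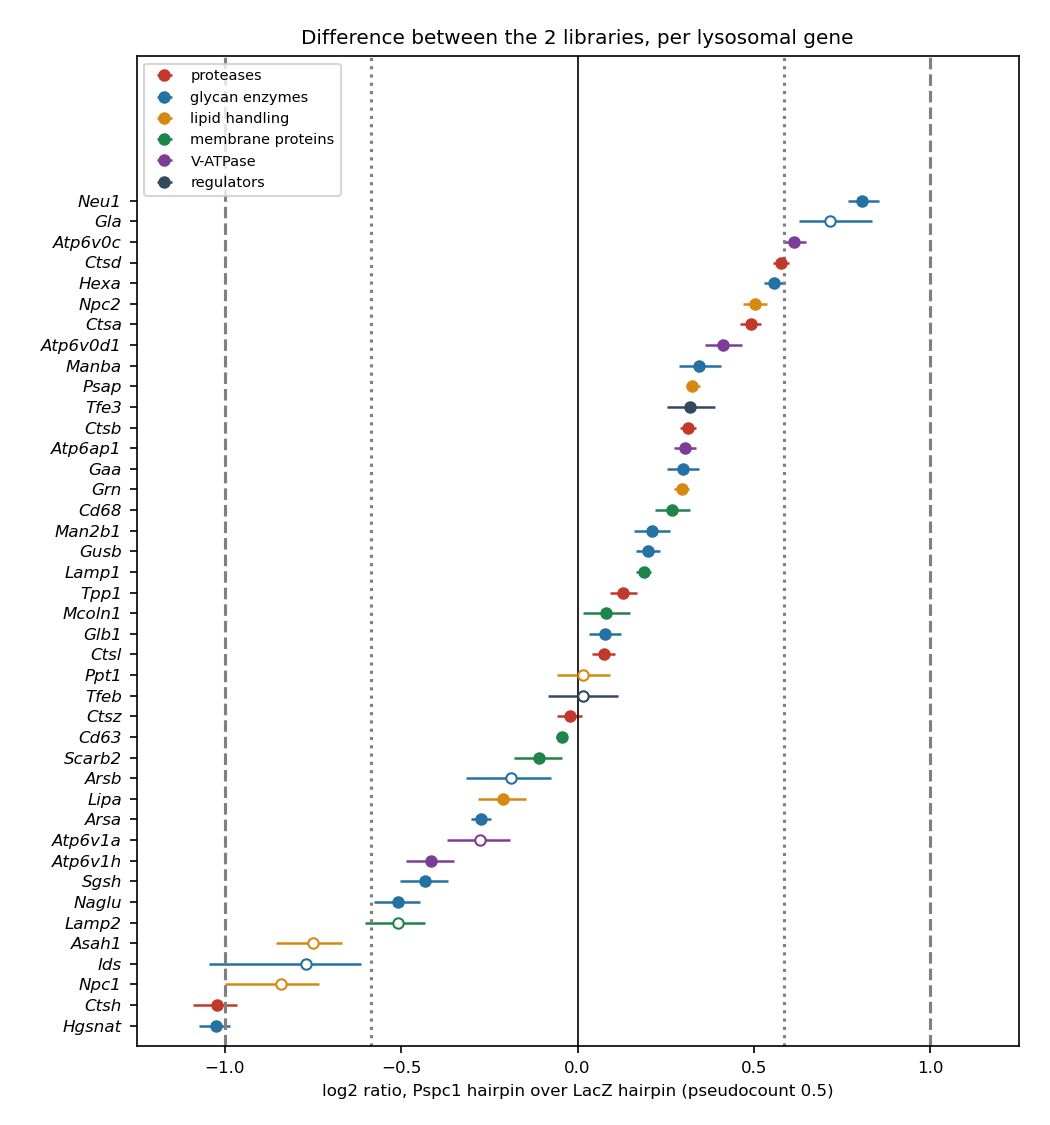
Log2 ratio of the Pspc1 hairpin library over the LacZ hairpin library for the 41 lysosomal genes, with a pseudocount of 0.5, ordered by size and coloured by role. Bars are 95% counting intervals of the ratio without pseudocount, open points have a mean under 50, dotted lines mark 1.5-fold and dashed lines 2-fold; Hgsnat (-1.03) and Ctsh (-1.02) lie past the left dashed line and no gene reaches the right one.

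Genes of lipid breakdown and lipid transport were split. Psap encodes prosaposin, the precursor of the saposins that present sphingolipids to their hydrolases. With 228 and 286 per kilobase it stood second among the 41 genes in both libraries, and its values were 626 in the control and 785 in the knockdown library (log2 ratio 0.33). Grn, which encodes progranulin, the precursor of lysosomal granulins, had 532 and 653 (0.30). Asah1, the acid ceramidase gene, had 44.9 and 26.5 (-0.75), with a mean under the minimum. Lipa, the acid lipase that frees cholesterol from its esters, had 66.4 and 57.3 (-0.21, or 0.01 after the length and GC correction). Ppt1, which removes palmitate from proteins, had 49.6 and 50.2 (0.02, or -0.09 when scaled by total reads). Exons of Cap1 (342 and 450), on the other strand, overlap 3.51% of the exonic bases of Ppt1.

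The partners of cholesterol export had ratios of opposite sign. NPC2 binds cholesterol in the lumen and hands it to NPC1, a protein of the lysosomal membrane. Npc2 had 210 under the LacZ hairpin and 298 under the Pspc1 hairpin, a log2 ratio of 0.50 with an interval of 0.47 to 0.54. Npc1 had 23.8 and 13.04, a log2 ratio of -0.84 with an interval of -0.999 to -0.733, and its mean was under the minimum of 50. With 11317 bp of exon Npc1 was the longest member, against 5438 bp for Npc2. After the length and GC correction the ratios were -0.60 and 0.59, with Npc2 then past 1.5-fold. When scaled by total reads the ratio of Npc2 was 0.40. Per kilobase Npc2 exceeded Npc1 in both libraries, with 38.7 against 2.1 in the control and 54.8 against 1.15 in the knockdown library.

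Membrane proteins of the lysosome showed no called member. Cd63, a tetraspanin of late endosomes and lysosomes, was the most abundant of the 41 genes per kilobase in both libraries (306 and 297). Its values were 1128 and 1093, a log2 ratio of -0.04 that turned to 0.01 with median-of-ratios scaling. Lamp1 and Lamp2 encode the main glycoproteins of the lysosomal membrane. Lamp1 had 576 and 657 (0.19), while Lamp2 had 48.8 and 34.1 (-0.51, or -0.20 after the length and GC correction). Per kilobase Lamp1 exceeded Lamp2 in both libraries, with 215 against 5.11 in the control library. Cd68, a heavily glycosylated membrane protein best known from macrophages, had 103 and 124 (0.27, or 0.08 after that correction). Scarb2, the receptor that carries glucocerebrosidase to lysosomes, had 64.1 and 59.3 (-0.11, or 0.01 after that correction). Mcoln1, a calcium-permeable channel, had 61.1 and 64.7 (0.08, or -0.02 when scaled by total reads).

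Among V-ATPase members the V0 subunits had ratios above 0 and the V1 subunits below 0. Atp6v0c, on mm10 chromosome 17, 24163866 to 24169702, minus strand (ENSMUSG00000024121), encodes the proteolipid that forms the rotating ring. Its value was 217 under the LacZ hairpin and 333 under the Pspc1 hairpin, 1.53-fold higher, with a log2 ratio of 0.61 (interval 0.58 to 0.65). It lay near the edge of the smaller size, and its ratio was 0.51 when scaled by total reads and 0.54 after the length and GC correction. Atp6v0d1, a V0 subunit that links ring and stalk, had 90.5 and 121 (0.41). Atp6ap1, an accessory protein of pump assembly, had 249 and 308 (0.30). The V1 members were Atp6v1a, the catalytic subunit, with 40.7 and 33.5 (-0.28), and Atp6v1h, a regulatory subunit, with 75.2 and 56.3 (-0.41). After the same correction their ratios were smaller, -0.11 for Atp6v1a and -0.12 for Atp6v1h, while that of Atp6v0d1 was 0.29. The summed values of both V0 members were 308 and 454, and those of both V1 members were 116 and 89.8.

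The other subunits of the pump did not all follow that order. Sorting all subunits by sector was done after the member values were seen, and it carries no test. Of 6 V0 subunits with a mean of at least 50, all had a ratio above 0 (median 0.36, range 0.03 to 0.61). Of 6 V1 subunits of that mean, 4 had a ratio above 0 (median 0.02, range -0.41 to 0.38). Across all genes of that mean 60.1% lay above 0. Atp6v0e (0.03), Atp6v1b2 (0.02) and Atp6v1g1 (0.01) were counted as above 0. Scaling by total reads moved the median of all genes by -0.10, a shift larger than each of those ratios. Under it 45.6% of all genes lay above 0, and the counts of subunits above 0 were not made again. Atp6v0b had 303 and 417, and Tcirg1, a V0 a-subunit isoform, had 142 and 176. In V1, Atp6v1f had 142 and 185, while Atp6v1c1 had 67.2 and 56.3. The median exonic length was 3548 bp for those V0 genes and 4707.5 bp for the V1 genes, and the part of length in the difference was not tested here.

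The regulators were among the less abundant members. Tfeb had 29.6 under the LacZ hairpin and 29.9 under the Pspc1 hairpin, a log2 ratio of 0.02 whose counting interval ran from -0.08 to 0.11. That sign turned when scaled by total reads (-0.09) and after the length and GC correction (-0.07). Tfe3, its paralog, had 55.8 and 69.8 (0.32, interval 0.26 to 0.39). Per kilobase Tfe3 had 6.03 and 7.54 and Tfeb 5.21 and 5.27. Both proteins are controlled mainly by phosphorylation and location in the cell, which RNA values do not measure. Of 19 genes fixed for regulation (mTORC1, Ragulator, Rag GTPases, folliculin and calcineurin) 7 passed the minimum mean of 50, and none of the 7 reached 1.5-fold in either direction.

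Promoters of the members were searched for the letters that TFEB and TFE3 bind. The RefSeq table on GRCm38.p6, the same build as mm10, gave a start site for 35 of the 41 genes, with 42 promoters of 300 bases (250 before the start and 50 after it). Asah1, Atp6v1h, Ctsb, Ctsh, Hgsnat and Npc1 had no entry. The motifs were CACGTG, the longer form TCACGTGA, and a form of 10 bases that adds a G before and a C after the latter. The longer forms contain the shorter ones. Each reads the same on both strands. CACGTG was found in 13 of the 42 promoters (31.0%), in 10.3% of 11134 promoters of genes with values in this series and in 7.15% of all 32851 promoters. TCACGTGA was found in 6 of the 42 (14.3%), against 1.97% and 0.974%. The form of 10 bases was found in 0 of the 42, against 0.746% and 0.326%. A match describes letters and shows no binding.

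The promoters with TCACGTGA belonged to Atp6v0d1, Atp6v1a, Ctsa, Ctsd, Gla and Mcoln1. They are shown because these members hold the longest form found, with 10 bases on each side, on the strand of the gene, and with the motif in capitals. Ctsa and Gla hold it at 2 places each.
Atp6v0d1, chr8:105566051-105566078, minus strand: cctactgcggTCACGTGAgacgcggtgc
Atp6v1a, chr16:44139374-44139401, minus strand: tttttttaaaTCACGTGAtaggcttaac
Ctsa, chr2:164833750-164833777, plus strand: gagcaaactgTCACGTGAtgcagatgct
Ctsa, chr2:164833767-164833794, plus strand: atgcagatgcTCACGTGAccagagctac
Ctsd, chr7:142387909-142387936, minus strand: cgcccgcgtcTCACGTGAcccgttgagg
Gla, chrX:134601216-134601243, minus strand: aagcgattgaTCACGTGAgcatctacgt
Gla, chrX:134601183-134601210, minus strand: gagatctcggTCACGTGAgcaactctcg
Mcoln1, chr8:3500463-3500490, plus strand: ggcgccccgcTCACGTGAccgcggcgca

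Of these 6 genes 5 lay above 0, and the log2 ratios had a median of 0.45 and a range of -0.28 (Atp6v1a) to 0.72 (Gla). For Mcoln1 the sign turned when scaled by total reads (-0.02), which leaves 4 of 6. The 13 genes with CACGTG had a median of 0.08, with 9 above 0, and the 22 matched genes without it a median of 0.21, with 15 above 0. The gene with the highest ratio, Neu1, held none of the 3 forms in its window. The motif at Ctsd begins 99 bases before the start, those at Gla 228 and 195 bases before it, and those at Ctsa 13 bases before and 4 bases after it. The 250 bases before the start are printed for the 3 of these 6 genes with the largest ratios, with TCACGTGA in capitals.
Gla, chrX:134601006-134601255, minus strand: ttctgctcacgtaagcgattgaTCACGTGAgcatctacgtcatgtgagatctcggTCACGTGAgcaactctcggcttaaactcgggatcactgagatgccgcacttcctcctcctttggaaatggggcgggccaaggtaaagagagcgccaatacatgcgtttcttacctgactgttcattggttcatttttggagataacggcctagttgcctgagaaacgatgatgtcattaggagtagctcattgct
Ctsd, chr7:142387828-142388077, minus strand: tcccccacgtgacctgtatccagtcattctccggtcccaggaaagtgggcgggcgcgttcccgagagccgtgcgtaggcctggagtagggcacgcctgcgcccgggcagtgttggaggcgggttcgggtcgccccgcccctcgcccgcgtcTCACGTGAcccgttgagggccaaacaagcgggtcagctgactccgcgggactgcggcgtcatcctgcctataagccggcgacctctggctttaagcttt
Ctsa, chr2:164833523-164833772, plus strand: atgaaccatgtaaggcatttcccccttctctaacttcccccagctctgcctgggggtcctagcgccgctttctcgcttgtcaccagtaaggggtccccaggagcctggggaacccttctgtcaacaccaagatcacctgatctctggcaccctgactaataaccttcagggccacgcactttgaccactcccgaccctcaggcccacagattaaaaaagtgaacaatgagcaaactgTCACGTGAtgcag

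Exonic length and base composition moved with the ratio, among the members as among all genes. Across the 41 genes the log2 ratio had a Spearman's rho of -0.27 against exonic length and of 0.36 against GC content. Across 5889 genes with a mean of at least 20 it was -0.32 and 0.31. These are correlations across genes of the same 2 libraries, and genes are not independent replicates. The members were set beside all genes of the same length and of mean 50 or more, while no minimum mean was applied to the members themselves. The 14 shortest members (1257 to 3390 bp) had a median log2 ratio of 0.29, beside 0.14. The 13 of middle length (3474 to 5438 bp) had a median of 0.13, beside 0.07, and the 14 longest (5669 to 11317 bp) -0.05, beside -0.03. The correction moved 17 of the 41 ratios by over 0.1, and the largest move, 0.31, was that of Lamp2. Hgsnat with 3305 bp and Ctsh with 4499 bp were not among the long members. The part of length and composition in the members' ratios was not tested beyond the correction given here.

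**Figure D3:**
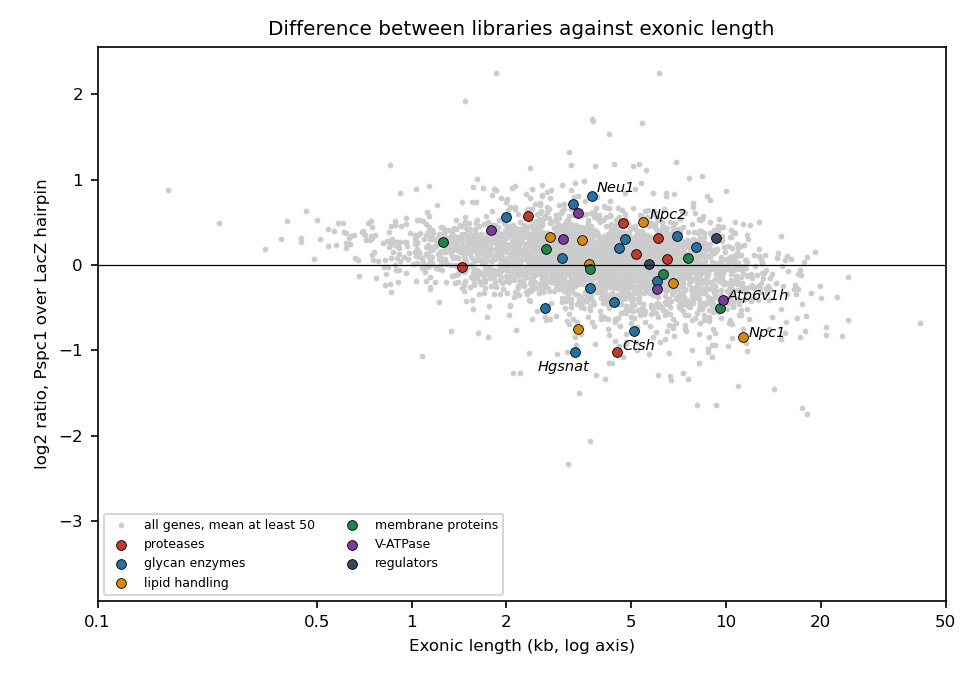
Log2 ratio of the Pspc1 hairpin library over the LacZ hairpin library against exonic length in kilobases (log axis), for every gene whose mean was 50 or more (grey) and the 41 lysosomal genes (coloured by role). Long genes lie lower on the whole, with Npc1 (11317 bp, -0.84) as the longest member, while Hgsnat (3305 bp, -1.03) and Ctsh (4499 bp, -1.02) lie low without being among the long members.

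Among 126 further lysosomal genes, in 5 lists by role, 113 had values and 52 a mean of at least 50. Of the 52, 39 (75%) had a log2 ratio above 0, beside 60.1% of all genes of that mean. None of the 52 reached 2-fold in either direction. At 1.5-fold 3 were higher, or 5.77% against 3.39% of all genes, and none was lower. These 3 had log2 ratios from 0.61 to 0.68, near the limit of 0.585, and the mean of Gm2a was 50.3. Scaling by total reads moved the median of all genes by -0.10. A shift of that size puts all 3 genes under 0.585, though they were not called again. They were Lgmn, the asparaginyl endopeptidase legumain (105 and 164), Gm2a, the activator that presents gangliosides to beta-hexosaminidase (38.5 and 62.1), and Spns1, a lysosomal membrane transporter (107 and 164). The 14 other enzymes of that mean had a median log2 ratio of 0.35 with 13 above 0, the 11 other membrane proteins 0.10 with 7 above 0, and the 9 other V-ATPase subunits 0.13 with 8 above 0. The 11 genes of enzyme sorting had a median of 0.18 with 7 above 0, among them the mannose 6-phosphate receptor genes M6pr (160.0 and 186) and Igf2r (53.1 and 51.4). The 7 regulation genes had a median of 0.23 with 4 above 0. Without the minimum mean, 17 regulation genes had values, and their median was -0.20 with 6 above 0.

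Below the minimum mean, and named after their values were seen, Gpr137b, a lysosomal membrane protein, had 21.6 in the control and 70.3 in the knockdown library. Sidt2, a lysosomal membrane protein linked to nucleic acid uptake, had 26.1 and 57.0. In the sorting list, Sort1, the receptor sortilin, had 13.2 and 6.72, and Vps35, a retromer subunit, had 12.99 and 6.91.

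**Figure D4:**
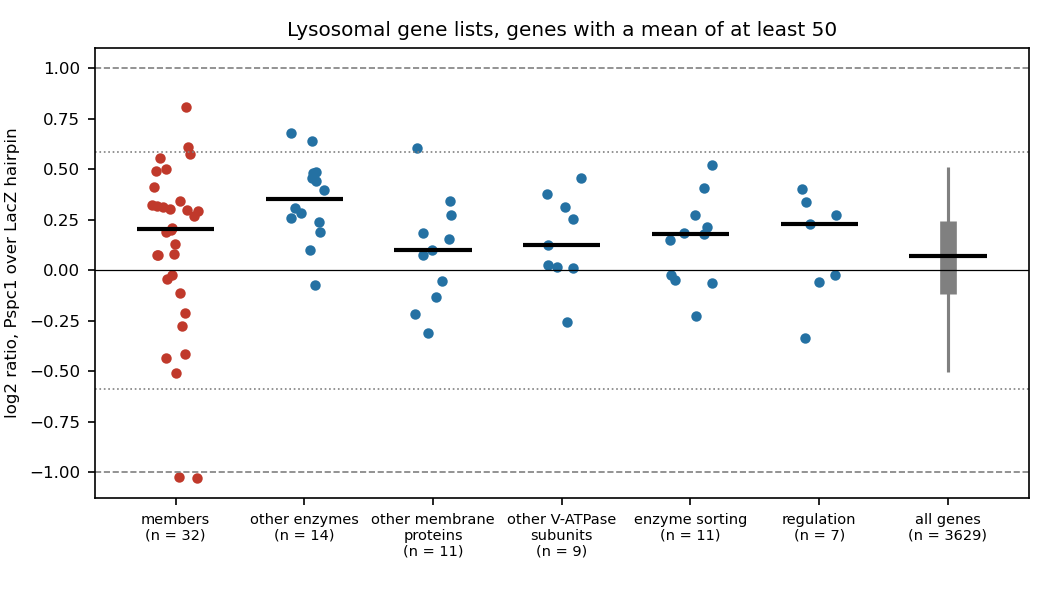
Log2 ratio of the Pspc1 hairpin library over the LacZ hairpin library for genes with a mean of at least 50, among the lysosomal members (red, n = 32) and 5 further lists by role (blue). Black bars are medians, from 0.10 (other membrane proteins) to 0.35 (other enzymes); for all 3629 genes the thick bar spans the percentiles 25 to 75 and the thin line 5 to 95, dotted lines mark 1.5-fold and dashed lines 2-fold.

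Exons of 15 of the 41 genes overlap those of another annotated gene, and the kit was not stated to keep strand, so reads of such pairs could not be told apart. Exons of Gm26527, which had no value, overlap 32.3% of the exonic bases of Arsb, and those of the antisense gene Gm47123 overlap 26.8% of Ctsl. The 26 members without an overlap include Hgsnat, Neu1, Ctsh and Atp6v0c. Of the 41 genes 20 had a ratio above 0 and 12 below 0 under all of 6 settings of scaling, pseudocount and correction. The remaining 9 changed sign with the setting, and none of these 9 went beyond 0.315 log2 from equality under any of them.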

How the data were processed

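Poly-A RNA of MS1 cells was sequenced in 2 libraries, 1 per group, grouped by the treatment label. The submitters' processing notes name build mm10, HISAT2 2.1.0, Trimmomatic 0.39, DESeq 1.39.0 and featureCounts 2.0.0. Their roles, the annotation, the filter and the scaling formula are not given in the sources used here. Made by the authors, the deposited signal is a scaled read count per gene: every value was a whole multiple of 1 step per library within 0.01 of a step. Here 1 step was taken as 1 read, which no file or label states, and the read totals and counting intervals rest on it. The log2 ratios were computed here from the values as deposited, with a pseudocount of 0.5, which understates changes of low genes. The design provided for this case. Intervals are 95% conditional binomial (Clopper-Pearson) and cover counting error only, since each group held 1 library. No molecular identifiers were used here, and each read was counted as independent. The median interval was 0.10 log2 wide.

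Symbols were found for 11399 of 11405 genes. Coordinates, merged exonic length and GC content of transcripts came from GENCODE M21 (GC for 11399 genes). Members and lists were chosen with earlier results of these data known. Every member was named, and of other lysosomal genes those of mean at least 50 past 1.5-fold. Other genes named beside the members were chosen after their values were seen, and 1 lysosomal gene is not reported here. Of the markers, all with a called difference and the most abundant were named. Alternatives were TMM scaling, median-of-ratios scaling, scaling by total reads, a pseudocount of 5, minimum means of 20, 100 and 0, and subtraction of a linear fit on log2 length and GC content. The steps were checked on simulated reads. Python 3.11.15, numpy 2.4.6, pandas 2.3.3, scipy 1.17.1 and matplotlib 3.10.9 were used.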

Additional observations from a re-analysis of the deposited data

How the results depend on the processing

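No paired analysis was possible because each group held 1 library, and for the same reason no replicate could be left out. The count of members at least 2-fold lower, 2 as reported, was 0 after TMM or median-of-ratios scaling. It was also 0 with a pseudocount of 5 or the length and GC correction, and 1 with a minimum mean of 100. Of all 3629 genes, 34 were at least 2-fold lower as reported, 25 after TMM and 24 after median-of-ratios scaling. The all-gene count was 27 with a pseudocount of 5, 27 of 3627 after the correction and 16 of 2097 with a minimum mean of 100. The count of members at least 1.5-fold higher, 2 as reported, was 4 after TMM or median-of-ratios scaling and 1 when scaled by total reads. Of all 3629 genes, 123 were at least 1.5-fold higher as reported, 152 after TMM, 159 after median-of-ratios scaling and 74 with total reads. The count of members at least 1.5-fold lower, 2 as reported, was 1 with a minimum mean of 100 and 5 of all 41 without a minimum. It was 3 with a minimum mean of 20, with total reads or after the length and GC correction. Over all genes, those at least 1.5-fold lower were 141 of 3629 as reported and 1457 of 11405 without a minimum. The all-gene count was 325 of 5892 and 63 of 2097 with minimum means of 20 and 100. With total reads 201 of 3629 genes were lower, and 108 of 3627 after the correction. Of members at least 1.5-fold different there were thus 2 higher and 2 lower as reported, 4 and 2 with either of the first 2 scalings, and 1 and 3 with total reads. The median log2 ratio of 0.21 was 0.26 with median-of-ratios scaling, 0.10 with total reads, 0.13, 0.30 and 0.082 with minimum means of 20, 100 and 0. Scaling by total reads moved the median of all genes by -0.10. The members' median exceeded that of all genes by 0.13 as reported. It did so by 0.13 under that scaling too, which was fixed in advance because a scaling moves members and all genes alike. The excess was 0.09, 0.19 and 0.13 with minimum means of 20, 100 and 0, and 0.17 after the length and GC correction. Signs turned for Ctsl (-0.030), Glb1 (-0.025), Ppt1 (-0.087), Mcoln1 (-0.021) and Tfeb (-0.087) with total reads. They turned for Ctsz after TMM (0.020) and median-of-ratios scaling (0.028), for Cd63 with the latter (0.0054), and for Lipa (0.0067), Scarb2 (0.013) and Tfeb (-0.068) after the length and GC correction. The scalings differ by 1 constant per library. For the other settings the cause was not tested. Depth limits the 9 members with a mean under 50 most: the widest counting interval, that of Ids, spanned 0.43 log2.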
